A study of Drosophila melanogaster with 9 samples.

Results

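The cytochrome P450 genes of the fly were taken as every gene whose symbol had the systematic Cyp form (family number, subfamily letter, gene number), together with the steroid hormone genes spok, spo, phm, dib, sad and shd, in both deposited count tables. The rule used symbols and no measured value. It found 91 of the 17806 genes, of which 6 were steroid hormone genes and 85 were others. By textbook nomenclature they fell into 40 genes of clan 3, 32 of clan 4, 12 of the mitochondrial clan and 7 of clan 2. The annotation listed 89 of them as protein-coding and 2, Cyp6a15Psi and Cyp6t2Psi, as pseudogenes.

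Cytochrome P450 enzymes carry a heme and insert an oxygen atom into small hydrophobic substrates, with electrons supplied by a reductase partner. Clan 3 and clan 4 of insects hold many enzymes that act on plant toxins, insecticides and fatty acids, and the gut is a known site of their expression. The Halloween genes, expressed mainly in the prothoracic gland and the ovary, encode the enzymes that build the moulting hormone ecdysone from dietary sterols.

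Intestinal progenitors (the stem cells of the adult midgut and their immediate daughters) were sorted by GFP and profiled by rRNA-depleted RNA-seq. The tested cells carried RNA interference against swm, which encodes an RNA-binding protein (3 libraries, titled swm). The controls were titled esgTS, a temperature-sensitive driver system named after the progenitor gene esg, and had the genotype WT (3 libraries). Each RNA-seq replicate pooled the guts of 100 adult females and gave 30000 to 50000 sorted cells. In a separate CLIP-seq experiment, RNA from whole intestines of genotype WT was collected with beads coated against Swm (2 immunoprecipitates, Swm IP) and compared with the total lysate (1 input). The labels do not give fly age, temperature shift or the RNA interference line, and genetic background and RNA interference cannot be told apart in the contrasts of progenitors.

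Totals were 14627251 to 19399264 counts in the libraries labelled swm RNAi and 19428033 to 19962224 in the controls, 2451369 and 8497190 in the Swm IP libraries and 4615623 in the input. All values below are CPM, counts scaled to the TMM-adjusted library size. The targeted transcript swm stood at 159, 136 and 135 CPM in swm RNAi and at 159, 116 and 157 CPM in the controls, so the label was not borne out by a lower swm level and every direction below is that of the libraries labelled swm RNAi. The 8 progenitor markers summed to 6116 to 7680 CPM in swm RNAi and 4904 to 7944 CPM in controls. The 17 enterocyte markers summed to 1053 to 2577 CPM in swm RNAi and 675 to 990 CPM in controls, with 0 of 15 tested called. Germline and ovary markers summed to 491 to 1298 CPM in swm RNAi and 39.4 to 58.7 CPM in controls, nearly all of it piwi, since the other 6 summed to 3.09 to 8.82 CPM in swm RNAi and 4.42 to 5.34 CPM in controls. Enteroendocrine markers summed to 36.1 to 43.4 CPM in swm RNAi and 6.54 to 17.5 CPM in controls, with Syt4 the only marker called of 8 tested and Dh31 at 0 in every RNA-seq library. In sorted bulk samples, fewer cells of a type and less RNA per cell cannot be told apart.

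In progenitors the P450 genes were a small fraction of the library and were dominated by few members. Their summed level was 680, 723 and 594 CPM in swm RNAi and 574, 581 and 617 CPM in controls. The group means were 665.7 ± 66.0 CPM in swm RNAi and 590.8 ± 22.8 CPM in controls (SD, n = 3 each). The log2 ratio of these means was 0.17, and the lowest swm RNAi library lay inside the range of the controls. Without Cyp6d2, described below, the sums were 528, 573 and 512 CPM in swm RNAi and 574, 579 and 614 CPM in controls. The higher sum with swm RNAi thus rested on that gene. All 3 swm RNAi libraries then lay below all 3 controls, at the closest 573 against 574 CPM. Only the gene called higher was left out, while Cyp6a23, called lower, stayed in. This order is therefore no result about the rest of the family.

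Cyp305a1, a clan 2 gene, was the most abundant P450 in every RNA-seq library and took 22.8% to 34.4% of the summed P450 CPM. It had 155, 188 and 148 CPM in swm RNAi and 166, 155 and 212 CPM in controls. The groups overlapped, and the log2 fold change was -0.12 (SE 0.18). Scaled to exonic length, its control mean was 98.7 CPM per kb, against 37.0 for Cyp6a9, 26.7 for Cyp9f2, 17.5 for Cyp6a13 and 17.2 for Cyp6a23, the next 4 in the order. The means of Cyp6a13 and Cyp6a23 were closer to each other than the 1.67 CPM per kb SD of Cyp6a23 over the controls. Cyp9f3, Cyp6d4, Cyp4ac1, Cyp4ac2 and Cyp9b1 completed the 10 highest, between 11.4 and 7.55 CPM per kb. In swm RNAi the same scale gave 90.9 CPM per kb for Cyp305a1, 72.8 for Cyp6d2, 27.0 for Cyp9f2, 21.2 for Cyp6d4 and 19.7 for Cyp6a9, while Cyp6a23 stood 18th of the 91 at 4.15. A mean of at least 1 CPM was reached by 42 members in swm RNAi and by 42 in controls.

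**Figure D1:**
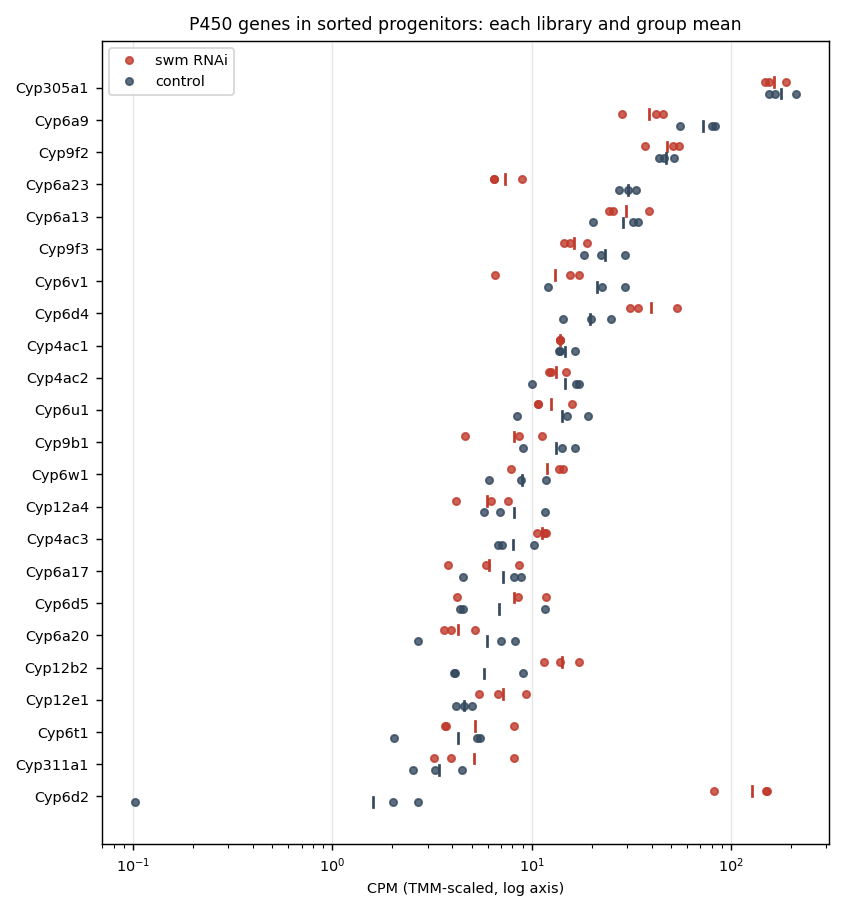
CPM (log axis) of the 23 P450 genes with a group mean of at least 5 CPM in sorted progenitors, ordered by their control mean. Each point is a library (red, swm RNAi, above; blue, control, below) and the vertical tick is the group mean. The 3 red points of Cyp6d2, at 81.8 to 152 CPM, lie far right of its controls, and those of Cyp6a23, at 6.47 to 8.98 CPM, lie left of its controls.

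The rest of the family was low and patchy. Of the 91 members, 16 had 0 counts in all 6 RNA-seq libraries, 27 reached 10 counts in no library and 29 reached 10 counts in all 6. A further 13 reached 10 counts in 1 library only, of which 7 did so in control replicate 2 and 4 in swm RNAi replicate 3. Cyp4p3 is an example, with 47 counts in control replicate 2 and 0 in the other 5 libraries. Cyp312a1 had 0 counts in the swm RNAi libraries and 13, 0 and 50 counts in the controls, at least 16.7-fold lower against a floor of 3 counts over the group, but 1 control library was also at 0. Cyp28a5 had 0, 14 and 6 counts in swm RNAi and 0 in every control, at least 8.39-fold higher by the same floor, again with 1 swm RNAi library at 0. These genes did not pass the filter on low counts and were not tested.

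The whole-intestine input ranked the family differently. These libraries were counted and scaled in a table of their own, over the whole gene span and not the exons alone, so levels are set side by side across the tables with no test. In the input, 51 members reached 1 CPM and the family summed to 3074 CPM. Per kb of gene span the leading members were Cyp6a23 with 337 CPM, Cyp9b2 with 283, Cyp12a4 with 174 and Cyp9f2 with 132. Cyp6d4, Cyp6a20, Cyp6g1, Cyp6a9, Cyp12c1 and Cyp28d1 followed, between 47.5 and 32.2. Cyp6g1 is known for resistance to DDT and neonicotinoids, Cyp12a4 for resistance to lufenuron, and Cyp6a20 for an effect on male aggression. Cyp305a1, first in progenitors, stood 30th in the input with 3.87 CPM per kb, and Cyp9b2, second in the input, stood 29th in control progenitors with 1.39 CPM per kb of exons. Cyp9f2, Cyp6a9, Cyp6a23 and Cyp6d4 were among the 10 highest in both.

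Some of the family could not be read in the CLIP-seq table at all. Of the members, 22 had 0 counts in both Swm IP libraries and the input, and 19 of these were the members that lie wholly inside the span of another gene. All 19 such members were at 0, and 17 of them had counts in RNA-seq. They included Cyp4ac1, Cyp4ac2 and Cyp4ac3 (inside tkv), Cyp9f3 (inside Sol1), Cyp6d5 (inside rdx), Cyp6a2 (inside Epac), Cyp49a1 (inside Galphao), Cyp310a1 (inside MESR3), Cyp4g1 (inside CG32816), and Cyp4p1, Cyp4p2 and Cyp4p3 (inside hig). Cyp4g1 makes cuticular hydrocarbons in the oenocytes of the fly. Over all genes with at least 60 RNA-seq counts, 1234 of 1241 inside another gene's span (99.4%) were at 0 in the CLIP-seq table, against 94 of 7241 (1.30%) elsewhere. For the P450 genes with that many counts it was 12 of 12 inside and 0 of 37 elsewhere. A 0 for these members in the CLIP-seq libraries is therefore not read as a low level, and they enter no comparison of Swm IP with input.

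**Figure D2:**
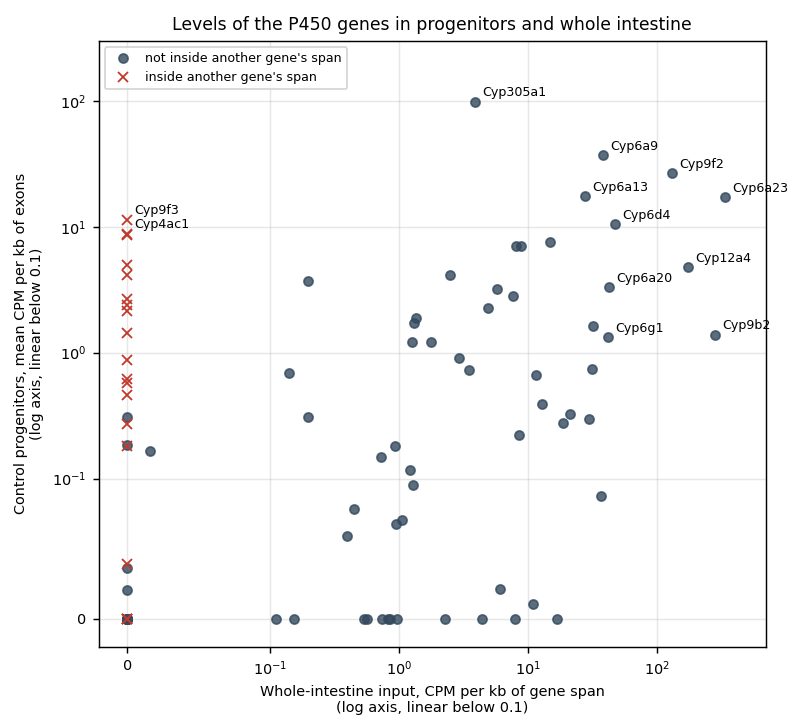
Mean CPM per kb of exons in the 3 control progenitor libraries (vertical) against CPM per kb of gene span in the whole-intestine input (horizontal) for all 91 P450 genes, both on log axes that are linear below 0.1. Circles are members not inside another gene's span and crosses are the 19 members inside one, all of which stand at 0 in the input; Cyp305a1 lies highest, and Cyp6a23 and Cyp9b2 lie furthest right.

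The steroid hormone members were at the limit of detection in progenitors. Together they summed to 1.05, 2.45 and 4.47 CPM in swm RNAi and to 1.43, 1.71 and 0.687 CPM in controls. spok, which acts with spo in the early steps of ecdysone synthesis, had 0, 12 and 41 counts in swm RNAi and 0, 6 and 12 counts in controls. The groups overlapped, and the log2 fold change was 1.94 (SE 1.93, edgeR adjusted p = 0.817). shd, which makes the active hormone from ecdysone in peripheral tissues, had 9, 17 and 11 counts in swm RNAi and 15, 0 and 2 counts in controls. Its log2 fold change was 1.38 (SE 1.78, edgeR adjusted p = 0.872), and its groups overlapped as well. spo had 3, 9 and 13 counts in swm RNAi and 0, 9 and 0 counts in controls. sad, a later hydroxylase of the pathway, had 3, 8 and 0 counts in swm RNAi and 13, 20 and 0 counts in controls. dib had 1 count in swm RNAi replicate 2 and 0 in the other libraries, and phm had 0 in all 6, as did Cyp18a1, which inactivates ecdysteroids. With so few counts a change in these genes was not detectable, and spo, sad, dib, phm and Cyp18a1 were not tested. nvd, which starts the pathway and is no P450, was likewise low, at 0 to 0.261 CPM in swm RNAi and 0 to 0.307 CPM in controls.

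With swm RNAi, 45 members passed the filter on low counts. Of these, 1 was called higher (Cyp6d2), 1 lower (Cyp6a23) and 43 were not called (edgeR quasi-likelihood test, Benjamini-Hochberg adjusted p below 0.05 over all 8899 genes tested). Over all genes, 3.17% were called, 2.34% higher and 0.832% lower, so the members' shares of 2.22% in each direction rest on 1 gene each and are no result about the family. The median log2 fold change was 0.14 over the tested members (25 positive, 20 negative) and 0.03 over all genes. The members' median was negative without control replicate 1 (-0.052) and without swm RNAi replicates 1, 2 and 3 (-0.022, -0.060 and -0.042). More members passed the filter in these fits (50, 52, 50 and 48, in that order), so these medians are not over the same 45 genes. The 3 libraries of each group did not overlap for 8 members that were higher (17.8%, against 12.3% of all genes) and for 3 that were lower (6.67%, against 7.94%). An unadjusted p below 0.05 (edgeR) was reached by 5 of the 45 members, namely Cyp6d2, Cyp6a23, Cyp6a9, Cyp6d4 and Cyp12b2. It was reached by 1107 of the 8899 genes tested, so the members' share was no larger than that of all genes.

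Cyp6d2 went furthest of the tested members. It lies on 2R at 22652573 to 22654530 (minus strand, BDGP6), and its natural variants are known to set the sensitivity of flies to the drug camptothecin. It had 2170, 2873 and 1189 counts in swm RNAi and 2, 41 and 55 counts in controls, which is 152, 150.0 and 81.8 CPM in swm RNAi and 0.102, 2.01 and 2.70 CPM in controls. Every swm RNAi library stood far above every control, and the swm RNAi mean of 128 ± 40.0 CPM was 79.8 times the control mean of 1.60 ± 1.35 CPM (SD, n = 3 each). The log2 fold change was 6.31 (SE 0.87, edgeR adjusted p = 0.0260). The call was sensitive to single libraries, although the fold was not. The edgeR adjusted p was 0.164, 0.124 and 0.0730 without swm RNAi replicates 1, 2 and 3, and 0.0527 and 0.0922 without control replicates 2 and 3, at log2 fold changes of 6.15 to 6.90. It was 0.333 with the replicate number as a block and 0.0721 without the filter on low counts, and within a range of 2.55e-07 (DESeq2) to 0.333 over all settings.

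Of the exonic bases of Cyp6d2, 51.0% overlap nsr, a gene on the plus strand. nsr itself had 0, 19 and 0 counts in swm RNAi and 0 in all controls. The use of strand in counting was not given in the sources used here, so reads of the shared stretch cannot be assigned to a strand. In the whole intestine Cyp6d2 had only 6 and 14 counts in the Swm IP libraries and 23 in the input. Of its gene span, 52.2% overlaps nsr, and genes inside another gene's span were nearly all at 0 in CLIP-seq. These few counts are therefore not read as a low level. The germline and ovary sum and the enteroendocrine sum were higher in the 3 swm RNAi libraries through piwi and Syt4, with the values given above. Without these genes both sums overlapped between the groups. The part of these markers in the result was not tested.

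Cyp6a23 was the only member called lower. It lies on 2R at 14875829 to 14877654 (plus strand) in the largest P450 cluster of the genome, and is a close copy of its neighbour Cyp6a17, whose loss is known to alter temperature preference. It had 8.98, 6.47 and 6.47 CPM in swm RNAi and 30.5, 33.2 and 27.3 CPM in controls. The groups were well apart, with means of 7.31 ± 1.45 CPM in swm RNAi and 30.4 ± 2.94 CPM in controls (SD, n = 3 each). Cyp6a23 fell by 2.06 on the log2 scale (SE 0.26, edgeR adjusted p = 0.0013) and was called in every alternative setting and without each library in turn. The range of its edgeR and DESeq2 adjusted p over these settings was 6.33e-09 to 0.0100. It was also the most abundant P450 of the whole-intestine input, so its levels in swm RNAi progenitors, control progenitors and whole intestine were 4.15 and 17.2 CPM per kb of exons and 337 CPM per kb of span. The enterocyte sum, of the cell type that makes up most of the gut, was higher in swm RNAi (1053 to 2577 CPM) than in controls (675 to 990 CPM). Its part in the fall of Cyp6a23 was not tested.

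The cluster that holds Cyp6a23 has 9 P450 genes at 2R 14871366 to 14903095. Of the 91 members, 48 lie in 17 such clusters with gaps of at most 10 kb. Besides Cyp6a23, 5 of its genes were tested, all with negative log2 fold changes and none called. Of all 45 tested members, 20 had negative values. The cluster was looked at because it holds a called gene, so the shared sign is no result about the cluster. Cyp6a9 was nearest to the threshold, with 42.2, 45.5 and 28.2 CPM in swm RNAi and 82.7, 79.8 and 55.3 CPM in controls. Its groups did not overlap, and the log2 fold change was -0.91 (SE 0.23, edgeR adjusted p = 0.0617). It was called with library sizes alone (adjusted p = 0.0401), with DESeq2 (0.0177), with no filter (0.000326), with the replicate block (0.0181) and without control replicate 3 (0.0181). Cyp6a19 overlaps Cyp6a9 on the opposite strand over 20.8% of its exonic bases. It had 1.33, 0.731 and 0.894 CPM in swm RNAi and 1.99, 2.60 and 2.36 CPM in controls, with a log2 fold change of -1.23 (SE 1.03, edgeR adjusted p = 0.757).

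The other tested genes of the cluster moved less. Cyp6a17, next to Cyp6a23, had 5.89, 8.67 and 3.78 CPM in swm RNAi and 4.50, 8.18 and 8.84 CPM in controls (log2 fold change -0.23, SE 0.47). Its groups overlapped, unlike those of its close copy, although the counting could have split reads between the copies. Cyp6a20 had a log2 fold change of -0.49 (SE 0.55) and Cyp317a1 one of -0.68 (SE 0.89). Cyp6a21, Cyp6a22 and Cyp6a8 were not tested. Cyp6a21 had 0, 0 and 0.825 CPM in swm RNAi and 0, 3.23 and 0.393 CPM in controls. Cyp6a22 reached 0.550 CPM in swm RNAi replicate 3 and was 0 in the other 5 libraries, and Cyp6a8 reached 0.980 CPM in control replicate 2 and was 0 in the other 5. Summed over all 14 Cyp6a genes, the level was 91.5 ± 19.0 CPM in swm RNAi and 153 ± 21.0 CPM in controls (SD, n = 3 each), and the 3 libraries of each group did not overlap. Cyp6a9 and Cyp6a23 carried most of that difference. Cyp6a13, another abundant Cyp6a gene at 17.5 CPM per kb of exons in controls, lies in another cluster and had 24.4, 39.0 and 25.7 CPM in swm RNAi and 20.2, 32.0 and 34.3 CPM in controls (log2 fold change 0.04, SE 0.27).

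**Figure D3:**
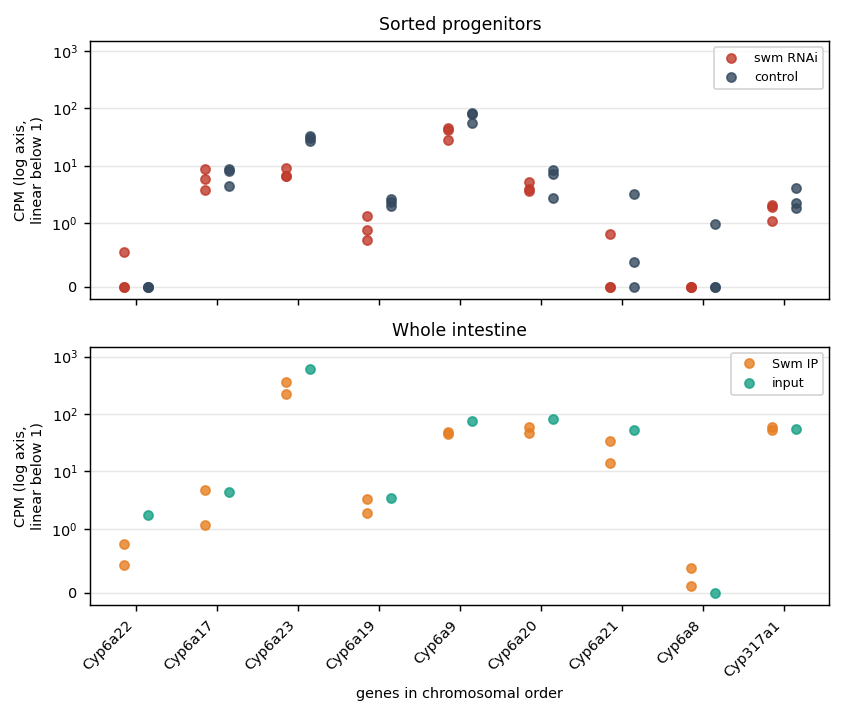
CPM (log axis, linear below 1) of the 9 P450 genes of the Cyp6a cluster, in chromosomal order, in each library of sorted progenitors (top; red, swm RNAi; blue, control) and of whole intestine (bottom; orange, Swm IP; green, input). In the top panel the points of Cyp6a23 and Cyp6a9 separate by group, with swm RNAi lower, and in the bottom panel Cyp6a23 is the highest gene, at 228 and 356 CPM in Swm IP and 616 CPM in the input.

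Among members that were not called, Cyp6d4 and Cyp12b2 were closest to the threshold on the higher side. Cyp6d4 had 53.7, 34.1 and 31.0 CPM in swm RNAi and 14.3, 24.8 and 19.9 CPM in controls. The groups did not overlap, and the log2 fold change was 1.01 (SE 0.28, edgeR adjusted p = 0.0963), but it was called with no filter (adjusted p = 0.00369). Cyp12b2, of the mitochondrial clan, had 13.9, 11.5 and 17.3 CPM in swm RNAi and 4.09, 9.01 and 4.12 CPM in controls. Its groups did not overlap either, with a log2 fold change of 1.31 (SE 0.41, edgeR adjusted p = 0.143), but it was called without control replicate 2.

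Among members whose mean reached 1 CPM in either group, another 4 differed more than 4-fold in mean CPM without overlap and without a call. All 4 were low and were higher in swm RNAi. No share of all genes is given for this rule, and the controls were near the floor. The shared direction is therefore no result about the family. Cyp301a1, known for its part in cuticle formation, had 1.12, 3.19 and 1.10 CPM in swm RNAi and 0, 0.392 and 0 CPM in controls (log2 fold change 3.72, SE 1.80, edgeR adjusted p = 0.447). Cyp6g2, known for insecticide resistance and for expression in the corpora allata, had 2.10, 3.39 and 3.30 CPM in swm RNAi and 0, 0.882 and 0 CPM in controls (3.29, SE 1.65, edgeR adjusted p = 0.479). Cyp4e2 had 3.65, 3.60 and 1.79 CPM in swm RNAi and 1.38, 0.490 and 0 CPM in controls (2.26, SE 1.37, edgeR adjusted p = 0.594). Cyp303a1, required for sensory bristles, had 7, 31 and 27 counts in swm RNAi and 7, 6 and 0 counts in controls and did not pass the filter. These standard errors show that the counts fix the size of these differences poorly.

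By clan, no group of genes held more than a single call in either direction. Of the 28 tested members of clan 3, 1 was higher, 1 was lower and the median log2 fold change was -0.09. Of the 8 tested in clan 4, 0 were called and the median was 0.07. The mitochondrial clan had 6 positive and 1 negative value among 7 tested members, a median of 1.31 and 0 called. Cyp301a1 passed the filter on low counts only through swm RNAi, with 16, 61 and 16 counts there and 0, 8 and 0 in controls. shd had 9, 17 and 11 counts in swm RNAi and 15, 0 and 2 in controls. The filter thus in part set this split, which is no result about the clan. The summed level of the clan was 35.4 ± 2.78 CPM in swm RNAi and 21.9 ± 5.82 CPM in controls (SD, n = 3 each). Without Cyp12b2 it was 20.7, 21.5 and 21.1 CPM in swm RNAi and 20.7, 16.6 and 11.0 CPM in controls. Control replicate 1 was then level with the lowest swm RNAi library. Cyp12a4 was the negative member, with 6.24, 4.18 and 7.57 CPM in swm RNAi and 11.6, 6.96 and 5.79 CPM in controls (log2 fold change -0.44, SE 0.44), while its neighbour Cyp12a5 had 1.60 (SE 1.54). Cyp9f2 had 27.0 CPM per kb of exons in swm RNAi and 26.7 in controls, with 37.1, 54.6 and 50.8 CPM in swm RNAi and 46.0, 51.5 and 43.4 CPM in controls (log2 fold change 0.02, SE 0.19, overlapping groups). Its neighbour Cyp9f3 had 15.6, 18.9 and 14.4 CPM in swm RNAi and 29.2, 22.3 and 18.2 CPM in controls (-0.51, SE 0.26). The 3 neighbours Cyp4ac1, Cyp4ac2 and Cyp4ac3 had log2 fold changes of -0.09, -0.15 and 0.49, with standard errors of 0.26, 0.31 and 0.34.

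**Figure D4:**
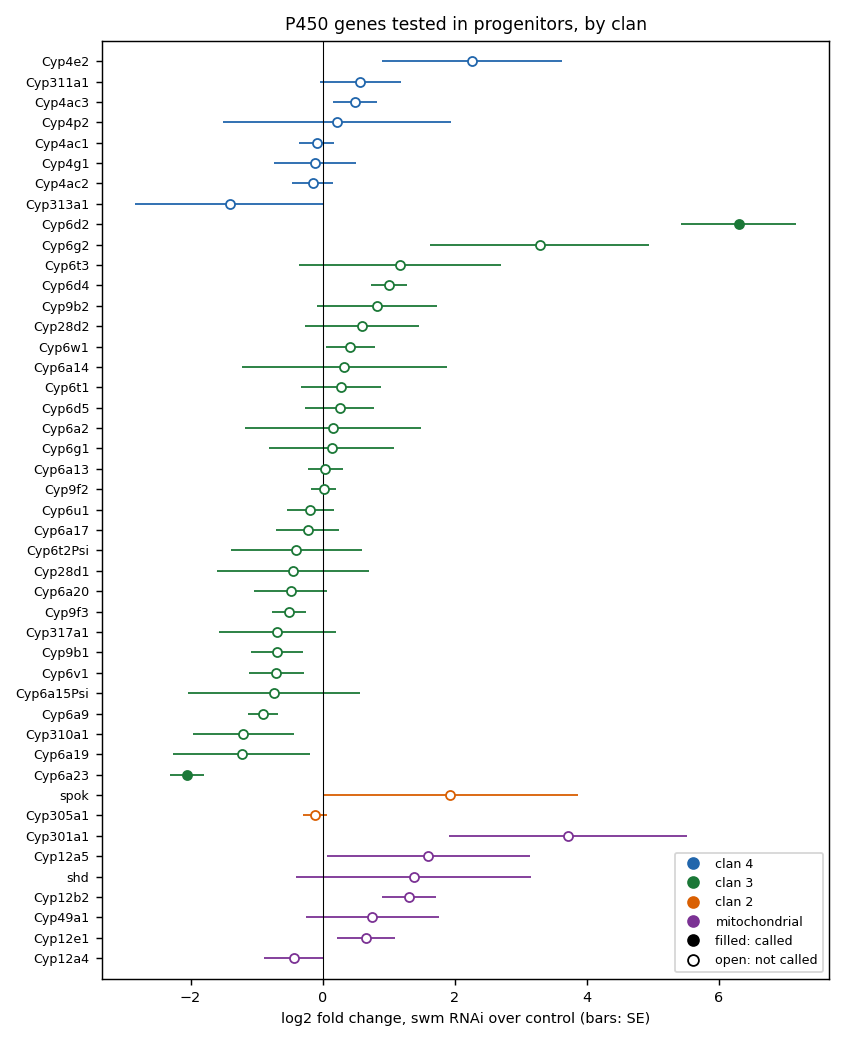
Log2 fold change, swm RNAi over control, of the 45 P450 genes tested in progenitors, grouped by clan, with bars for the standard error. Filled points are called (Cyp6d2, 6.31, and Cyp6a23, -2.06) and open points are not. Of the 7 mitochondrial genes, 6 lie right of 0, a split in part set by the filter on low counts.

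In the whole intestine, P450 transcripts were mostly lower in Swm IP than in the input. The family summed to 1653 and 2072 CPM in the Swm IP libraries and 3074 CPM in the input. Of 52 members that passed the filter, both Swm IP libraries were below the input for 30 (57.7%, against 41.7% of all genes) and above it for 8 (15.4%, against 40% of all genes). By the edgeR test, 2 members were called higher (spok and Cyp4g15) and 6 lower (Cyp9f2, Cyp6a23, Cyp12a4, Cyp12c1, Cyp28d1 and Cyp6d4). Over all 8375 genes tested, 9.27% were called higher and 8.97% lower (18.2% in all), against 3.85% and 11.5% of the members. The median log2 ratio was -0.40 over the members (17 positive, 35 negative) and 0.00 over all genes. The fit left 1 residual degree of freedom, and the spread of the only input was taken to be that of the Swm IP libraries. The enterocyte markers were lower too, summing to 36638 and 43275 CPM in Swm IP and 84068 CPM in the input, with 10 of 17 called lower and 2 higher. Their part in the P450 ratios was not tested.

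These ratios moved with gene length. With all genes split into 10 bins of gene span, the median log2 ratio was -1.18 in the bin of the shortest genes and 1.19 in that of the longest. P450 genes are short, with a median span of 2250.5 bases over the tested members against 3158.0 over all tested genes. Of the 52, 9, 20 and 12 fell in bins 3, 4 and 5, where the members' medians were -0.50, -0.62 and -0.64 and those of all genes -0.56, -0.32 and -0.17. With the length trend removed, the members' median was -0.13 (22 positive, 30 negative) and that of all genes 0.05, and the calls were spok and Cyp4g15 higher (3.85%, against 2.75% of all genes) and Cyp9f2 lower (1.92%, against 5.18%).

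spok was the furthest from the input. It had 128 and 77 counts in the Swm IP libraries and 2 in the input, which is 49.1 and 8.45 CPM in Swm IP and 0.494 CPM in the input. Both immunoprecipitates were higher, but they differed widely from each other. The log2 ratio was 5.75 (SE 1.55, edgeR adjusted p = 0.0442), and the ratio of summed counts was 35.4, with a 95% interval from counting error of 9.67 to 294. spok has the longest span of the tested members, 31677 bases (3R, 3322810 to 3354486, plus strand), of which 1767 are exonic. Length removed, the log2 ratio was 4.77 (SE 0.88), while the call was lost with library sizes alone and with the stricter filter. With 2 counts in the input, spok passed the filter on low counts only through Swm IP, where it is high. The fit left 1 residual degree of freedom and the 2 Swm IP libraries were far apart, so the call of spok is weak support. The ovary and germline markers, of a known site of Halloween gene expression, summed to 112 and 104 CPM in Swm IP and 41.8 CPM in the input. Most of that sum was AGO3, at 101 and 95.3 CPM in Swm IP and 41.0 CPM in the input. The log2 ratio of AGO3 was 1.26, and -0.25 with the length trend removed. Most other marker lists, given below with Cyp4g15, also had higher sums in both Swm IP libraries. The part of these markers in the result was not tested.

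Cyp4g15, known from neurons and glia of the fly, had 20.7 and 44.0 CPM in Swm IP and 3.46 CPM in the input. Both immunoprecipitates were well above the input, and the log2 ratio was 3.24 (SE 0.63, edgeR adjusted p = 3.06e-05) and 2.99 with the length trend removed. It had 0 counts in all 6 progenitor libraries. The neuron markers were also higher in the immunoprecipitates, summing to 99.0 and 83.6 CPM in Swm IP and 17.5 CPM in the input. This was not particular to neurons. The tracheal markers summed to 43.0 and 97.4 CPM in Swm IP and 17.1 CPM in the input. The hemocyte, Malpighian tubule, fat body, visceral muscle, progenitor and ovary sums were also higher in both Swm IP libraries. The enterocyte and enteroendocrine sums were lower in both. These sums are not corrected for the length trend. The part of these markers in the result was not tested.

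The other steroid hormone members added little. shd had 9.59 and 13.7 CPM in Swm IP and 9.88 CPM in the input, with a log2 ratio of 0.26 (SE 0.70) and of -0.12 with the length trend removed. spo had 4 and 16 counts in Swm IP and 4 in the input, sad 0 and 14 in Swm IP and 0 in the input, phm 0 and 2 in Swm IP and 0 in the input, and dib 0 in all 3. Cyp18a1 had 0 and 79 counts in Swm IP and 2 in the input. Its ratio of 13.6 (95% interval from counting error 3.65 to 115) rests on Swm IP replicate 2, and it was not called (edgeR adjusted p = 0.212).

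Cyp9f2 was the member whose lower level in Swm IP held with and without the length trend. It had 142 and 149 CPM in Swm IP and 355 CPM in the input, so both immunoprecipitates were close to each other and far below the input. The log2 ratio was -1.29 (SE 0.24, edgeR adjusted p = 1.70e-05), and -1.05 (SE 0.24, adjusted p = 0.000415) with the length trend removed. Cyp6a23 had 228 and 356 CPM in Swm IP and 616 CPM in the input (log2 ratio -1.07, SE 0.25, edgeR adjusted p = 0.000646). Cyp12a4 had 184 and 177 CPM in Swm IP and 345 CPM in the input (-0.93, SE 0.25, edgeR adjusted p = 0.00254). Cyp6a23 and Cyp12a4 were not called once the trend was removed, with log2 ratios of -0.58 and -0.49.

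The other 3 calls on the lower side were of less abundant genes and were also lost with the trend removed. Cyp12c1 had 22.3 and 44.1 CPM in Swm IP and 75.9 CPM in the input (log2 ratio -1.16, SE 0.36, edgeR adjusted p = 0.0141). Cyp28d1 had 24.2 and 33.1 CPM in Swm IP and 64.0 CPM in the input (-1.14, SE 0.38, edgeR adjusted p = 0.0219), and its neighbour Cyp28d2 had 9.21 and 0.878 CPM in Swm IP and 2.72 CPM in the input. Cyp6d4 had 37.6 and 57.8 CPM in Swm IP and 94.4 CPM in the input (-0.97, SE 0.33, edgeR adjusted p = 0.0240). Cyp9b2, second in the input, had 294 and 390 CPM in Swm IP and 526 CPM in the input and was not called (-0.62, SE 0.25, edgeR adjusted p = 0.0702). Cyp6g1 had 57.6 and 78.4 CPM in Swm IP and 116 CPM in the input (-0.76, SE 0.30, edgeR adjusted p = 0.0622).

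By a rule of size without a test, 3 members were at least 2-fold higher in both Swm IP libraries (5.77%, against 11.6% of all genes) and 3 at least 2-fold lower (5.77%, against 10.3%). The higher ones were spok, Cyp4g15 and Cyp6a18, which had 11.9 and 17.4 CPM in Swm IP and 4.45 CPM in the input. The lower ones were Cyp9f2, Cyp6d2 and Cyp12e1. Cyp12e1 had 5.37 and 1.65 CPM in Swm IP and 14.6 CPM in the input (log2 ratio -2.18, SE 0.86, edgeR adjusted p = 0.0613). Cyp6d2 had 2.30 and 1.54 CPM in Swm IP and 5.68 CPM in the input, and was not called (log2 ratio -1.60, SE 1.30). Its values are low, and 52.2% of its span overlaps nsr, where reads may not have been counted.

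**Figure D5:**
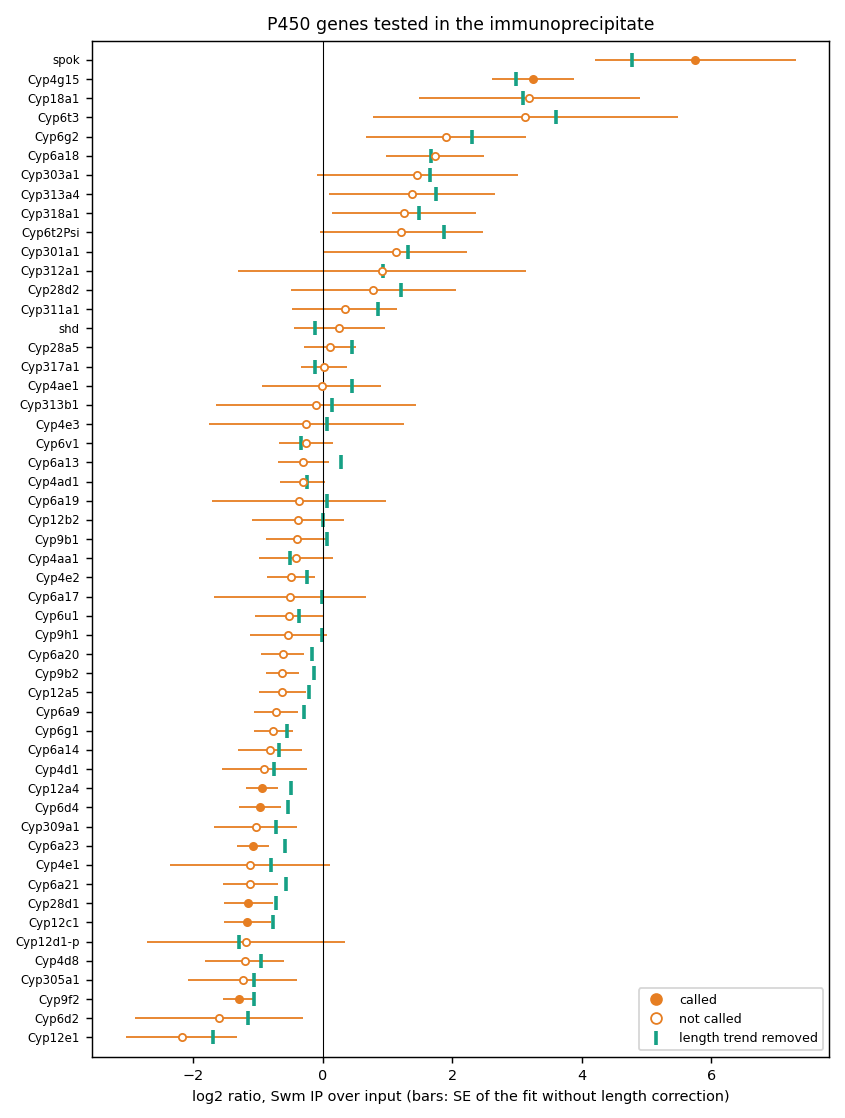
Log2 ratio, Swm IP over input, of the 52 P450 genes tested in whole intestine, with bars for the standard error; filled points are called. The green ticks give the ratio with the length trend removed and stand right of the point for most members below 0, while spok and Cyp4g15 remain highest among the called genes at 4.77 and 2.99.

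The genes that serve the P450 enzymes did not pass the test in progenitors. Of the redox partners, which hand electrons to P450 enzymes, 5 were tested and 0 called; of the heme synthesis genes, 7 were tested and 0 called. Cpr, the reductase of microsomal P450 enzymes, had 55.7, 59.5 and 54.1 CPM in swm RNAi and 56.8, 48.8 and 94.2 CPM in controls (log2 fold change -0.24, SE 0.23), with overlapping groups. Among other genes of ecdysteroid synthesis and transport 0 of 7 were called, among ecdysone response genes 0 of 12 and among regulators of xenobiotic response 0 of 7. The medians of these 5 lists, in the order given, were 0.17, 0.42, -0.19, 0.27 and 0.15, against 0.03 over all genes. ImpL2, an ecdysone-inducible insulin antagonist, was nearest to the threshold among the ecdysone response genes, with 44.8, 30.8 and 37.9 CPM in swm RNAi and 13.3, 26.1 and 11.0 CPM in controls (log2 fold change 1.17, SE 0.32, edgeR adjusted p = 0.0963). It was called with DESeq2 (adjusted p = 0.0408), with no filter (0.000544), with the replicate block (0.0464) and without control replicate 2 (0.0119). cnc, the fly Nrf2 and a regulator of detoxification genes, had 518, 589 and 500 CPM in swm RNAi and 407, 198 and 383 CPM in controls (0.70, SE 0.25, edgeR adjusted p = 0.228).

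In Swm IP against input, 18.2% of all genes were called, so the single calls in the short lists below are no result about the lists. Cyt-b5, which passes electrons to microsomal P450 enzymes, was the only 1 of 6 redox partners called. It had 102 and 138 CPM in Swm IP and 305 CPM in the input, a log2 ratio of -1.34 (SE 0.25, edgeR adjusted p = 1.25e-05) and of -1.04 (adjusted p = 0.000811) with the length trend removed. Cpr had 279.7 and 302 CPM in Swm IP and 286 CPM in the input (0.02, SE 0.25). Of 7 heme synthesis genes 1 was lower, Coprox (-1.25, SE 0.44, edgeR adjusted p = 0.0319), and it was not called with the trend removed. Of 8 other ecdysteroid synthesis and transport genes 1 was higher, mld, a zinc finger gene needed for spok transcription, with 102 and 132 CPM in Swm IP and 25.5 CPM in the input (2.20, SE 0.35, edgeR adjusted p = 2.25e-07; 1.14 and adjusted p = 0.0131 with the trend removed).

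Of 12 ecdysone response genes, 5 were higher in Swm IP by the edgeR test, against 9.27% of all genes: Eip74EF (1.01), Eip93F (1.00), ImpL2 (0.95), tai (0.94) and Eip75B (0.82, all log2 ratios). With the length trend removed none of the 5 was called, against 2.75% of all genes called higher, and the ratios of Eip74EF, Eip93F, tai and Eip75B were negative. Of 8 regulators of xenobiotic response, ss was higher (0 counts in the input) and maf-S lower (-1.15, SE 0.39, edgeR adjusted p = 0.0244). Neither was called with the trend removed, where maf-S stood at 0.10.

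The authors' deposited table for progenitors, made with DESeq2, lists 65 of the members, 57 with an adjusted p. Below 0.05 it holds Cyp6d2 (higher) and Cyp6a23 and Cyp6a9 (lower), with log2 fold changes of 6.29, -2.09 and -0.94. The authors' deposited table for Swm IP against input lists 57 members, 38 with an adjusted p, and below 0.05 holds spok and Cyp4g15 (higher) and Cyp9f2, Cyp12a4 and Cyp6a23 (lower). Cyp12d1-p and Cyp12d1-d are adjacent copies between which reads could have been split. Cyp12d1-d was at 0 in every library of both tables, and Cyp12d1-p had 2.30 and 1.32 CPM in Swm IP and 3.95 CPM in the input.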

How the data were processed

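RNA-seq of sorted progenitors and CLIP-seq of whole intestines were analysed from the 2 deposited tables of raw counts per gene. The submitters' processing notes name STAR 2.7.3a with cutadapt 2.9, featureCounts of Subread 2.0.0, SAMtools 1.10, and DESeq2. Build, annotation and strand use are not given in the sources used here. The gene lengths that accompany the deposited counts, per the file headers, leave out introns for RNA-seq and span the whole gene for CLIP-seq. Where named, log2 fold changes and adjusted p-values were copied from the authors' deposited comparisons, in which 9 per-sample columns were not used. A row without a gene name (at most 5 counts in a library) was left out. Coordinates are those of BDGP6, whose span equalled the deposited length for 90 of the 91 P450 genes.

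The whole tables were fitted with edgeR 4.0.16 under R 4.3.3 (robust quasi-likelihood, TMM scaling, filterByExpr at a minimum count of 10), with Benjamini-Hochberg adjustment over all genes and a threshold of 0.05. The groups were fitted without a block: deviations of samples with the same replicate number had correlations of -0.063, -0.049 and 0.0040. SE is the fold change over the root of the F statistic. The floor for a group at 0 is 3 counts. Intervals (95%, exact) and floors reflect counting error alone. Nothing in the labels ties replicates to separate crosses, and p-values then describe only the spread between these samples, which may be technical. No replicate pair was a duplicate (chi-square per degree of freedom 23.7 to 233). The length trend was removed by a loess offset (span 0.3) per library. The fits were tested on simulated data. Alternatives were DESeq2 1.42.0, RLE factors, library sizes alone, a filter of 1 CPM or none, a replicate block, a prior count of 0.5, the fit without the robust option, and each replicate left out.

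Named genes are the steroid hormone members and Cyp18a1; members called in either comparison; the 10 highest per kb in controls and in the input; members past 4-fold without overlap (at least 1 CPM in a group); members 2-fold from the input in both Swm IP libraries; neighbours within 10 kb of a called member; and related genes that were called, or else the 2 highest of a list. Others, such as Cyp12b2, Cyp312a1 and Cyp28a5, were chosen after their values were seen. A clause on protein identity could not be run. The members, the lists and the clans were chosen with earlier results of these data known.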

Additional observations from a re-analysis of the deposited data

How the results depend on the processing

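Of the main calls, Cyp6a23 lower in progenitors, and Cyp4g15 higher and Cyp9f2 lower in Swm IP, held in each setting run. In progenitors the number of members called higher was 1; it was 0 with the replicate block and 0 to 1 with each library left out, the single gene being Cyp6d4 with no filter and Cyp12b2 without control replicate 2 in place of Cyp6d2. The number called lower was 1; it was 2 with library sizes alone, with DESeq2, with no filter and with the replicate block, and 1 to 2 with each library left out. The replicate numbers did not pair the samples, and the cause of the block's effect was not tested. In Swm IP, 2 were higher, against 1 with library sizes alone and 1 with the stricter filter, and 6 were lower, against 2 with library sizes alone, 3 with DESeq2, 3 with the stricter filter, 1 with the length trend removed, 7 with RLE factors (Cyp6a21 gained) and 4 with the robust option off (Cyp6d4 and Cyp12c1 lost). Library sizes alone moved the median of all genes in Swm IP to 0.29, and that of the members to -0.12. By the rule of size, 3 members were 2-fold higher, against 5 with a prior count of 0.5, 7 with the length trend removed and 5 to 12 on 1 Swm IP library, and 3 were 2-fold lower, against 1 with library sizes alone, 1 with the length trend removed and 7 to 19 on 1 Swm IP library. No paired analysis was possible for Swm IP because the groups share only 1 replicate number.

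Among single genes, signs turned only for values without a call in progenitors and for the length correction in Swm IP. The members' median in progenitors ran from -0.060 to 0.095 with each library left out, over 48 to 52 tested members and not the 45 of the main fit. In progenitors, the log2 fold change of Cyp28d1 was 0.042 with the replicate block; that of Cyp6a13 was -0.023 and that of tai -0.00040 with library sizes alone; and that of Cyp9f2 was -0.014 with RLE factors, -0.044 with library sizes alone and -0.015 with DESeq2. With each library left out in turn, the log2 fold change ran from -1.06 to 0.71 for Cyp28d1, -0.037 to 1.69 for Cyp28d2, -0.23 to 0.030 for Cyp305a1, -0.15 to 0.0064 for Cyp4ac1, -0.20 to 0.19 for Cyp6a13, -0.56 to 0.025 for Cyp6a17, -0.30 to 1.78 for Cyp6g1, -0.092 to 0.15 for Cyp9f2, -0.11 to 0.51 for Coprox, -0.11 to 0.46 for Eip74EF, -0.20 to 0.41 for Eip75B, -0.19 to 1.21 for Eip93F and -0.099 to 0.28 for tai. With the length trend removed, the log2 ratio was 0.28 for Cyp6a13, 0.068 for Cyp6a19, 0.063 for Cyp9b1, -0.12 for shd, -0.22 for Eip74EF, -0.63 for Eip75B, -0.26 for Eip93F, 0.10 for maf-S and -0.40 for tai. Low counts limit what can be read for the low members: 27 of 91 reached 10 counts in no RNA-seq library.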
